A study of Mus musculus with 15 samples.

Results

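The cytosolic ribosomal protein genes were followed in messenger RNA from infarcted mouse left ventricles. They were taken by symbol, as protein-coding rows named Rpl or Rps with a number, together with Rpsa, Rplp0, Rplp1 and Rplp2. The rule found 84 of 39331 genes in the table. Of these, 52 belong to the large subunit and 32 to the small subunit. The rule leaves out some genes that also encode ribosomal proteins, of which Fau, Rpl36al and Rack1 are given separately. All libraries came from C57BL/6 mice with experimental myocardial infarction, so no group was uninjured. The 4 groups were neonatal hearts left untreated (NH_C, libraries 6 to 9), neonatal hearts after transfer of adult T cells (NH_T, libraries 1, 2, 4 and 5), untreated adult hearts (AH_C, libraries 5, 6 and 7) and adult hearts after transfer of adult T cells (AH_T, libraries 1 to 4). A collection time of 36 h is stated for neonates, and none for adults. Ages in days, the number and origin of the T cells, and whether each library came from 1 animal are not stated either, so p-values measure the spread between these libraries only. Total counts ran from 21871617 to 34302786 per library.

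Ribosomal proteins assemble with ribosomal RNA into the small subunit, which reads the messenger RNA, and the large subunit, which forms the peptide bond. Their messengers are among the most abundant in growing cells, and most begin with a run of pyrimidines, the 5′ terminal oligopyrimidine (TOP) motif, through which mTOR signalling controls their translation. A few members are paralogs expressed in particular tissues, such as Rpl3l in heart and skeletal muscle and Rpl10l and Rpl39l in testis.

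RefSeq windows around the annotated start (GRCm38.p6, 250 bases before to 50 after) were at hand for 64 of the 84 members, some with several starts, 76 windows in all. The stretches printed here run from 50 bases before the start to 25 after it, 5′ to 3′ on the transcribed strand. Capitals mark the longest run of C and T within 25 bases on either side of the start. They show 5 members that were higher in neonatal hearts in both arms (Rpl12, Rpl22l1, Rpsa, Rpl39 and Rpl10), the 1 that was lower in both (Rpl3l), 3 of those with the largest adult difference with T cells (Rpl41, Rps13 and Rpl38), and Rpl27a, whose value lay at the median of the members in that comparison.
Rpl12 (chr2:32961662-32961736, plus strand): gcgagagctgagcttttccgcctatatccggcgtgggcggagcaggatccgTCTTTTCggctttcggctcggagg
Rpl22l1 (chr3:28805458-28805532, plus strand): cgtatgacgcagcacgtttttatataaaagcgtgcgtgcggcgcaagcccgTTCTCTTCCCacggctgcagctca
Rpsa (chr9:120127716-120127790, plus strand): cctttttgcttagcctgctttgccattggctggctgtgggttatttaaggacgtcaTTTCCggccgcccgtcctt
Rpl39 (chrX:37085198-37085272, minus strand): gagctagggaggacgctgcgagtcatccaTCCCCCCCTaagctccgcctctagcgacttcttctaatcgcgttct
Rpl10 (chrX:74270766-74270840, plus strand): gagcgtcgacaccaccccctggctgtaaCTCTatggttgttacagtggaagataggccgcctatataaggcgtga
Rpl3l (chr17:24727776-24727850, plus strand): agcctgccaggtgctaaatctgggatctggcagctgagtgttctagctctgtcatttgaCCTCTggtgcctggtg
Rpl41 (chr10:128549144-128549218, minus strand): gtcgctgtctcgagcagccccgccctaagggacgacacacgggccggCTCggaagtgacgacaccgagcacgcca
Rps13 (chr7:116334166-116334240, minus strand): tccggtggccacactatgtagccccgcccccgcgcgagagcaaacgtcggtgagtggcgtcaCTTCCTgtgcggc
Rpl38 (chr11:114668530-114668604, plus strand): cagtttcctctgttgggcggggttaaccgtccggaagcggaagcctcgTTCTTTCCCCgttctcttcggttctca
Rpl27a (chr7:109519145-109519219, plus strand): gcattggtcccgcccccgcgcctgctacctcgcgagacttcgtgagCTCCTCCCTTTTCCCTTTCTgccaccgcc
Rpl27a carries 20 pyrimidines in a row across its start, and Rpl12 has 7 from base 2 of the transcript. Rpl22l1 has 10 from base 2 but also holds TATAAA upstream, the only member window that does. Rpl3l has 5, from base 10 of the transcript. The letters CTTTC on the transcribed strand within 50 bases of the start were in 36 of the 76 member windows (47.4%), against 11.4% of 21263 windows of all protein-coding genes. The ETS core CGGAAG, searched on both strands over the full window, was in 59.2% of member windows and 21.1% of all. AAGATGGC, the core bound by YY1, was in 10.5% and 3.05%, and the E-box CACGTG in 10.5% and 7.84%, both on both strands. TATAAA in the 50 bases before the start was in 1.32% and 3.17%. The longest pyrimidine run had a median of 7 bases in member windows and 5 in all, and 46.1% of member windows, against 19.3%, had a run of 8 or more. These matches describe letters in the windows only.

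Together the members took 2.86% ± 0.25 of all counts in neonatal controls (SD, n = 4), 2.92% ± 0.307 in neonatal recipients (n = 4), 2.06% ± 0.042 in adult controls (n = 3) and 2.53% ± 0.151 in adult recipients (n = 4). By library the share was 3.08%, 3.08%, 2.69% and 2.60% in neonatal controls 6 to 9, and 3.18%, 2.53%, 2.80% and 3.14% in neonatal recipients 1, 2, 4 and 5. Adult controls 5 to 7 had 2.08%, 2.09% and 2.01%. Adult recipients 1 to 4 had 2.42%, 2.59%, 2.40% and 2.71%. The 3 adult controls lay below all other libraries and close together, while the neonatal groups overlapped each other and the adult recipients. Mitochondrially encoded genes took 18.3% to 21.8% of counts in adult controls, 12.9% to 18.01% in adult recipients, 11.5% to 16.2% in neonatal controls and 11.1% to 13.9% in neonatal recipients. With these genes left out of the total, the members took 3.30% ± 0.227 in neonatal controls, 3.35% ± 0.359 in neonatal recipients, 2.58% ± 0.108 in adult controls and 3.004% ± 0.158 in adult recipients, and the adult controls stayed below all others. In bulk tissue, fewer cells of a type and less RNA per cell cannot be told apart.

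**Figure D1:**
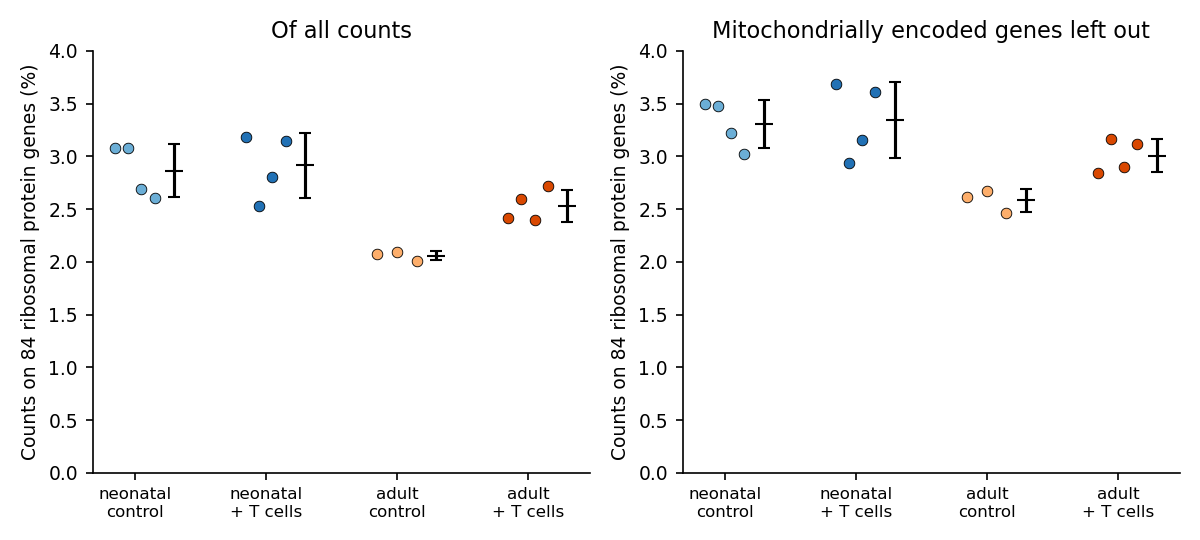
Share of counts on the 84 ribosomal protein genes in each library (points, percent), with mean and SD at the right of each group, for all counts (left) and without mitochondrially encoded genes (right). The 3 adult controls, at 2.01% to 2.09% of all counts, lie below the other 12 libraries.

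Levels differed widely among the members. Levels of single genes are given in CPM, counts per 1000000 counts of the library, with library sizes adjusted by edgeR's TMM factors. Per kilobase of transcript, the highest mean over all libraries was that of Rplp1, a protein of the acidic stalk that recruits elongation factors, at 1436 CPM per kb. Rpl41, the smallest ribosomal protein, followed at 1015 and Rplp0, the base of the stalk, at 1001. The paralogs stood at the other end. Rpl7l1 measured 26.4 CPM per kb, Rpl32l 19.9, Rpl3l 10.2 and Rpl39l 0.369. Rpl10l was at 0 counts in all 15 libraries and was not tested. That allows up to 0.0875 to 0.137 per 1000000 unscaled counts of a library (3 counts, counting error only). Markers of testis were also near 0, with a summed level of at most 0.188 CPM over 5 genes and Prm2 and Tnp2 at 0 throughout. The other 83 members passed the filter on low counts and were tested.

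The first comparison asked how untreated neonatal hearts differed from untreated adult hearts. Of the 83 tested members, 51 were higher in neonatal controls and 1, Rpl3l, was lower (edgeR quasi-likelihood test over 16437 genes, adjusted p below 0.05). Of all genes tested, 15.4% were higher and 15.6% lower. The median log2 fold change was 0.32 over the members and 0.02 over all genes, and 81 of the 83 had a positive value. Large and small subunit members had the same median, 0.32, with 31 of 51 and 20 of 32 higher. All 4 neonatal libraries lay above all 3 adult libraries for 56 members, against 16.9% of all genes.

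Rpl22l1, a paralog of Rpl22, had the largest rise among the 51 higher members. It measured 44.5, 48.0, 42.5 and 37.6 CPM in neonatal controls 6 to 9 and 25.6, 22.7 and 23.5 in adult controls 5 to 7. The groups did not overlap, and the log2 fold change was 0.85 ± 0.11 (SE, adjusted p = 2.36e-05), or 1.81-fold. Rpl12, a protein at the base of the stalk, measured 549.0, 552, 466 and 436 CPM against 303, 308 and 282, a log2 fold change of 0.75 ± 0.12 (adjusted p = 0.000139). Again every neonatal library lay above every adult one. Rpl39, a short protein of the peptide exit tunnel, measured 147, 155, 139 and 126 CPM against 93.7, 87.2 and 91.6, a log2 fold change of 0.64 ± 0.10 (adjusted p = 0.000204). Rpsa, the small subunit protein also known as the laminin receptor, measured 1000, 1003, 840 and 800 CPM against 617, 603 and 566, a difference of 0.61 ± 0.10 (adjusted p = 0.000319). Rps27a, made as a fusion with ubiquitin, and Rpl38 followed at 0.58 ± 0.12 and 0.57 ± 0.11 (adjusted p = 0.00109 and 0.000862). For Rpl38 the values were 147, 147, 112 and 117 CPM against 86.7, 87.7 and 89.2. Neonatal controls 6 and 7 were the upper pair and 8 and 9 the lower pair for Rpl12, Rpsa and Rpl38, as they were for the share of counts.

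Rpl3l, the striated muscle paralog of Rpl3, went the other way. It measured 5.002, 4.56, 9.08 and 6.82 CPM in neonatal controls 6 to 9. Adult controls 5 to 7 had 22.8, 19.3 and 15.05 and did not overlap with them, and the log2 fold change was -1.58 ± 0.22 (adjusted p = 8.45e-05). Of 4 tested skeletal muscle markers 3 were higher in the neonatal controls (summed level of 6 markers 18.3 to 34.3 CPM against 18.5 to 21.8), and their part in this result was not tested. Its partner Rpl3, a large subunit protein near the peptidyl transferase centre, was higher in neonatal hearts, at 592 ± 55.8 CPM against 462 ± 17.9 (0.36 ± 0.10, adjusted p = 0.00827). Rpl7l1, at 0.01 ± 0.07, and Rps14, at 0.05 ± 0.11, were among the lowest values after Rpl3l, and neither passed.

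Among members with known roles, the stalk proteins Rplp1 and Rplp2 were higher by 0.46 ± 0.10 and 0.40 ± 0.11 (adjusted p = 0.00235 and 0.00804), whereas Rplp0 had 0.25 ± 0.10 and did not pass (adjusted p = 0.0776). Rpl5 and Rpl11, which bind 5S ribosomal RNA and can hold Mdm2, were higher by 0.32 ± 0.10 and 0.38 ± 0.12 (adjusted p = 0.0219 and 0.0184). Rps19, mutated in Diamond-Blackfan anaemia, was higher by 0.40 ± 0.11 and Rpl13a by 0.37 ± 0.11 (adjusted p = 0.00809 and 0.015). Rps6, the substrate of S6 kinase, had 0.21 ± 0.10, Rps14 0.05 ± 0.11 and Rpl41 0.22 ± 0.11, and these 3 did not pass (adjusted p = 0.103, 0.756 and 0.145).

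Marker levels also differed between these groups, and their part in the result was not tested. All 6 genes of dividing cells were higher in neonatal controls, with a summed level of 440 to 535 CPM against 298 to 374 in adult controls. Of 7 macrophage markers 4 were higher (sum 207 to 661 against 179 to 240 CPM), of 8 cardiomyocyte markers 3 were lower (39940 to 43160 against 45790 to 47990 CPM), and all 4 endothelial markers were lower. The 5 erythroid markers summed to 500.4 to 1427 against 1686 to 1819 CPM, with 1 higher. The cardiomyocyte markers were abundant in every library. Without adult control 7, the count of higher members was 32, against 12.1% of all genes. Leaving out each library in turn gave 32 to 62 higher members, against 10.1% to 17.2% of all genes, and Rpl3l passed each time.

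**Figure D2:**
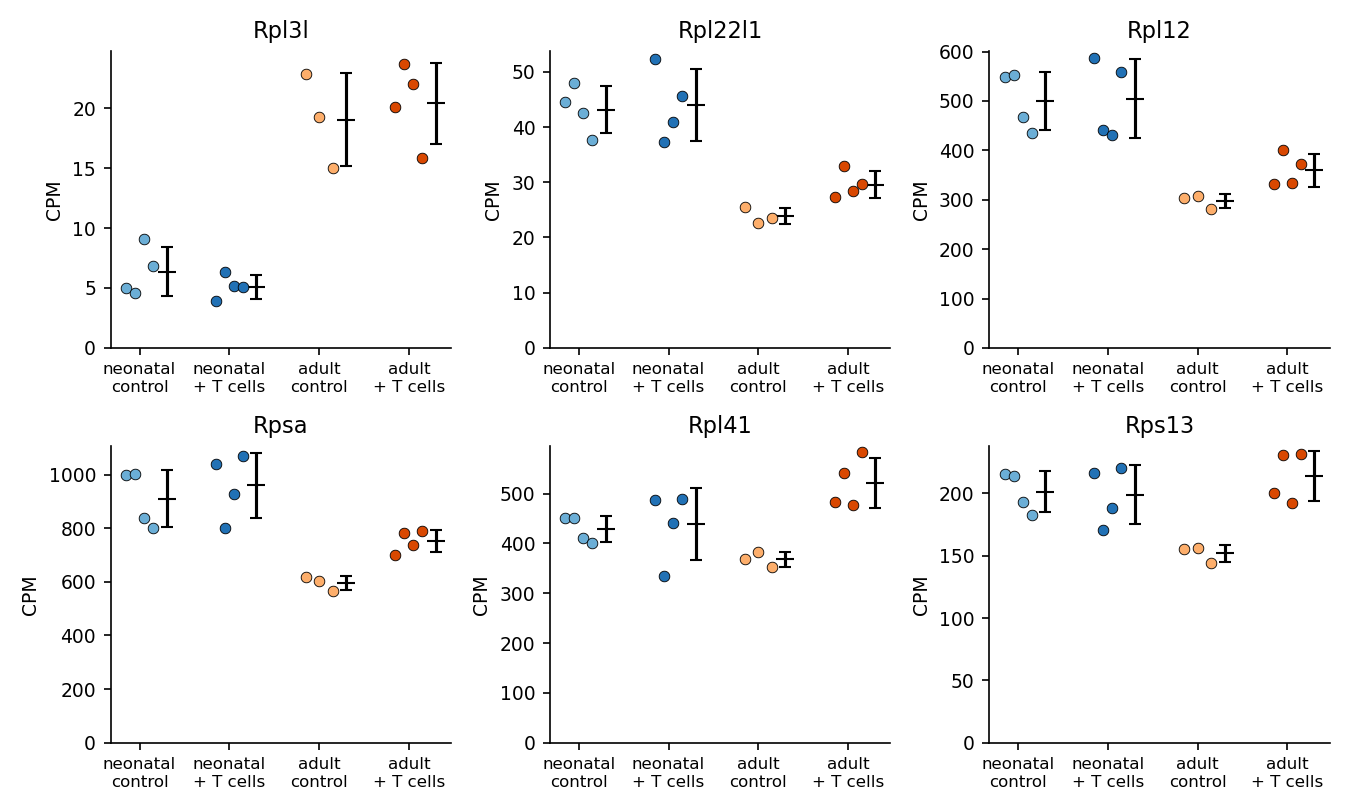
CPM of 6 members in each library (points) with mean and SD at the right of each group. Rpl3l is higher in both adult groups, Rpl22l1, Rpl12 and Rpsa are higher in both neonatal groups, and Rpl41 and Rps13 are higher in adult recipients than in adult controls.

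The same age comparison among recipients of T cells used none of these libraries. Here 6 members were higher in neonatal hearts and 7 lower, against 26.9% and 23.8% of all genes. The median over the members was 0.00 and over all genes 0.03, with 43 of 83 positive. The 6 higher members were Rpl22l1 (0.57 ± 0.10, adjusted p = 0.000128), Rpl12 (0.49 ± 0.11, adjusted p = 0.000954), Rpsa (0.35 ± 0.10, adjusted p = 0.00535), Rpl39 (0.31 ± 0.10, adjusted p = 0.0111), Rps27a (0.26 ± 0.10, adjusted p = 0.0451) and Rpl10 (0.24 ± 0.09, adjusted p = 0.024). All 6 were among the 51 higher in the untreated hearts, 11.8% of those 51, against 26.9% of all genes higher in recipients. The other 45 did not pass here. How many of all genes were higher in both arms was not counted. Rpl3l was lower in both arms.

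The values by library show how the 2 arms compare. For Rpl22l1 neonatal recipients 1, 2, 4 and 5 measured 52.3, 37.2, 40.9 and 45.6 CPM, and adult recipients 1 to 4 measured 27.3, 32.9, 28.3 and 29.6. The lowest neonatal library lay above the highest adult one. Rpl12 measured 586, 441, 431 and 559 CPM against 331, 401, 335 and 372, again without overlap. Rpsa measured 1041, 799, 929 and 1068 CPM against 699, 780.2, 738 and 790, and neonatal recipient 2 lay just above adult recipient 4. Rpl10, a large subunit protein at the subunit interface, measured 344, 272, 288 and 337 CPM against 244, 274, 269 and 261, and neonatal recipient 2 fell within the adult range. Rpl3l measured 3.92, 6.37, 5.15 and 5.04 CPM against 20.1, 23.7, 22.1 and 15.9, a log2 fold change of -1.99 ± 0.21 (adjusted p = 2.29e-06), and the groups lay far apart.

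Members lower in neonatal recipients besides Rpl3l included Rpl36 (-0.32 ± 0.10, adjusted p = 0.0115), Rps27 (-0.25 ± 0.09, adjusted p = 0.029), Rps29 (-0.23 ± 0.08, adjusted p = 0.026), Rps27l (-0.23 ± 0.09, adjusted p = 0.0457) and Rpl28 (-0.23 ± 0.08, adjusted p = 0.0292). None of these passed in the untreated hearts, where their values were 0.19, 0.11, 0.15, 0.06 and 0.11. For Rpl36 the values were 191, 147, 167 and 199 CPM in neonatal recipients 1, 2, 4 and 5 against 219, 237, 186 and 236, and adult recipient 3 lay within the neonatal range. Rps27, Rps29 and Rps27l also overlapped between the groups.

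The counts in recipients depended on the library left out: 13 higher and 3 lower without neonatal recipient 2, 3 and 10 without neonatal recipient 1, 4 and 11 without neonatal recipient 5, 4 and 7 without adult recipient 1, 9 and 3 without adult recipient 2, and 5 and 3 without adult recipient 4. With scaling by the DESeq2 size factors (RLE) the counts were 5 higher and 10 lower, and with the trend of level with transcript length removed they were 16 and 5. Of all genes, 24.1% to 25.9% were higher and 3474 to 3811 genes lower with 1 library left out. With RLE 25.7% were higher and 4111 of 16437 lower, and with the length trend removed 20.2% and 4650 of 15334. The 16 higher members lie near that share. Rpl12, Rpl22l1 and Rpsa were higher, and Rpl36 and Rpl3l lower, with any 1 library left out and under each change of scaling, test or filter. In both fits restricted to libraries whose number occurs in both ages, Rpsa lost the call (adjusted p up to 0.112). Rpl12, Rpl22l1, Rpl36 and Rpl3l kept it there. All 7 macrophage markers and all 4 tested neutrophil markers were higher and 7 of 8 cardiomyocyte markers lower in neonatal recipients (cardiomyocyte sum 36610 to 44960 against 54900 to 61840 CPM). Of dividing cell markers 5 of 6 were higher, and 4 of 4 endothelial, 3 of 5 erythroid and 2 of 4 tested T cell markers were lower. Their part in the result was not tested.

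**Figure D3:**
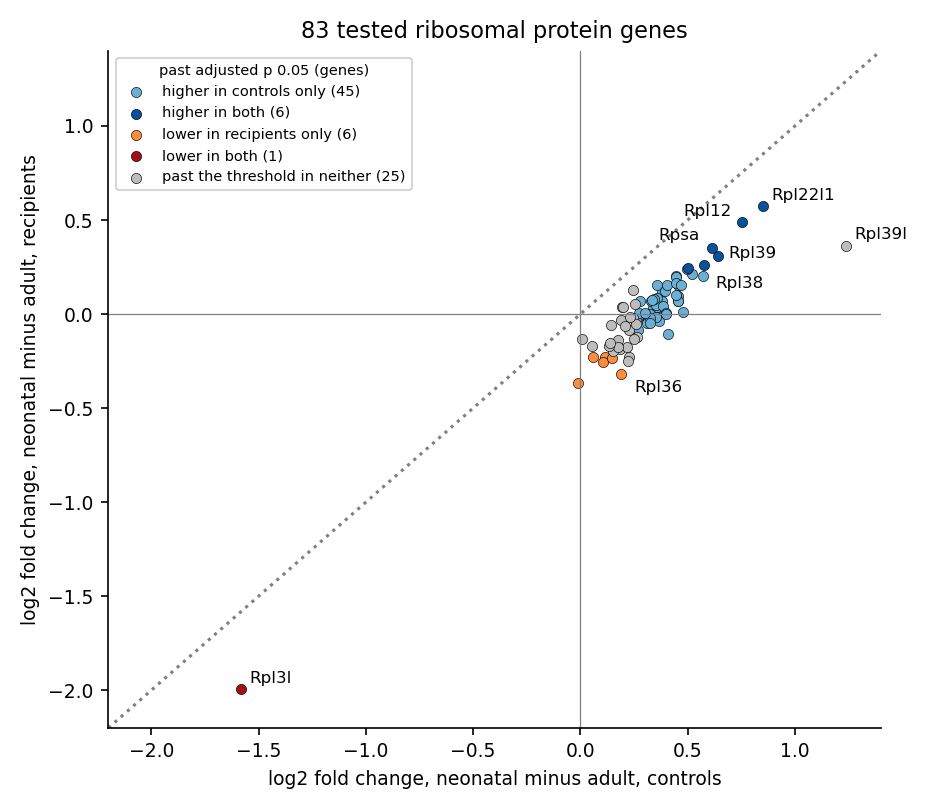
Log2 fold change of neonatal minus adult for each of the 83 tested members, in untreated hearts (x) and in recipients (y), with the diagonal of equal values dotted and colours for the comparisons in which a member passed adjusted p 0.05. Rpl3l stands alone at -1.58 and -1.99, and all 83 points lie below the diagonal.

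Adult T cells in adult hearts went with higher levels of ribosomal protein transcripts. Of the 83 members 48 were higher in adult recipients than in adult controls and 0 lower, against 3.53% and 5.03% of all genes. All 83 had a positive log2 fold change, with a median of 0.35 against 0.00 over all genes, and 78 had an unadjusted p below 0.05. All 4 recipients lay above all 3 controls for 75 members, against 13.1% of all genes. The spread among the members was narrow, with the middle 50% between 0.29 and 0.38. By subunit 27 of 51 large and 21 of 32 small members passed, with medians of 0.35 each.

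The largest differences past the threshold were those of Rpl41, Rps13, Rpl38, Rps19, Rpl36 and Rpl37. Rpl41 measured 484, 542, 476 and 584 CPM in recipients 1 to 4, against 369, 383 and 352 in controls 5 to 7, a log2 fold change of 0.50 ± 0.11 (adjusted p = 0.0203), or 1.42-fold. Rps13, a small subunit protein, measured 201, 230.5, 192 and 231 CPM against 156, 156 and 144 (0.49 ± 0.10, adjusted p = 0.018). In both genes every recipient lay above every control, and recipients 2 and 4 were the highest. Rpl38 measured 117, 126, 112 and 122 CPM against 86.7, 87.7 and 89.2 (0.44 ± 0.11, adjusted p = 0.0255). Rps19 had 0.43 ± 0.11, Rpl36 0.43 ± 0.11 and Rpl37 0.42 ± 0.09 (adjusted p = 0.0239, 0.0253 and 0.0206).

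Rplp1 was higher by 0.41 ± 0.10 and Rplp2 by 0.38 ± 0.11, with adjusted p = 0.0235 and 0.0372, and Rps6 by 0.34 ± 0.10 (adjusted p = 0.0382). The stalk base Rplp0 had 0.30 ± 0.10, Rpl5 0.31 ± 0.10, Rpl11 0.27 ± 0.12 and Rps14 0.29 ± 0.11, and none of these 4 passed. The smallest values were those of Rpl3l (0.10 ± 0.21), Rpl7l1 (0.14 ± 0.07) and Rpl4 (0.17 ± 0.10), which did not pass either. Rpl3l was at 20.4 ± 3.38 CPM with T cells and 19.1 ± 3.9 without, and the libraries overlapped.

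These calls rested on few libraries. No member and no other gene passed without adult control 5, adult control 6 or adult recipient 4. Without adult control 7 there were 12 higher members, against 2.21% of all genes, and 4 without adult recipient 2, against 0.791%. The member median stayed between 0.31 and 0.38 with any 1 library left out, and at least 82 of 83 values stayed positive. Difference and transcript length moved together. Members are short, with a median transcript length of 791 bases against 2751 for all genes with a length, and over 15334 genes the Spearman correlation of the adult difference with length was -0.43 (genes share the libraries and are not replicates). Within the 83 members it was -0.49. Of 10 equal bins of all genes by length, the shortest, which holds 59 members, had a median of 0.22 and the longest -0.24. With the trend with length removed in each library, 0 members and 0 genes passed, 53 members had an unadjusted p below 0.05, 82 were positive and the median was 0.21 against 0.03 over all genes. Lengths are medians over annotated transcripts, which puts Rps20 at 3706 and Rps15a at 5179 bases.

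Marker levels also moved between the adult groups. The 8 cardiomyocyte markers summed to 54900 to 61840 CPM in recipients and 45790 to 47990 in controls, and 2 of them, Actc1 and Myl2, were higher. The 6 T cell markers summed to 3.21 to 4.98 CPM against 1.89 to 2.69, and 1 of 4 tested, Cd4, was higher. The 5 erythroid markers summed to 2176 to 3075 CPM against 1686 to 1819, with 0 of 5 past the threshold. Macrophage markers summed to 172 to 236 CPM against 179 to 240. The part of these in the result was not tested.

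**Figure D4:**
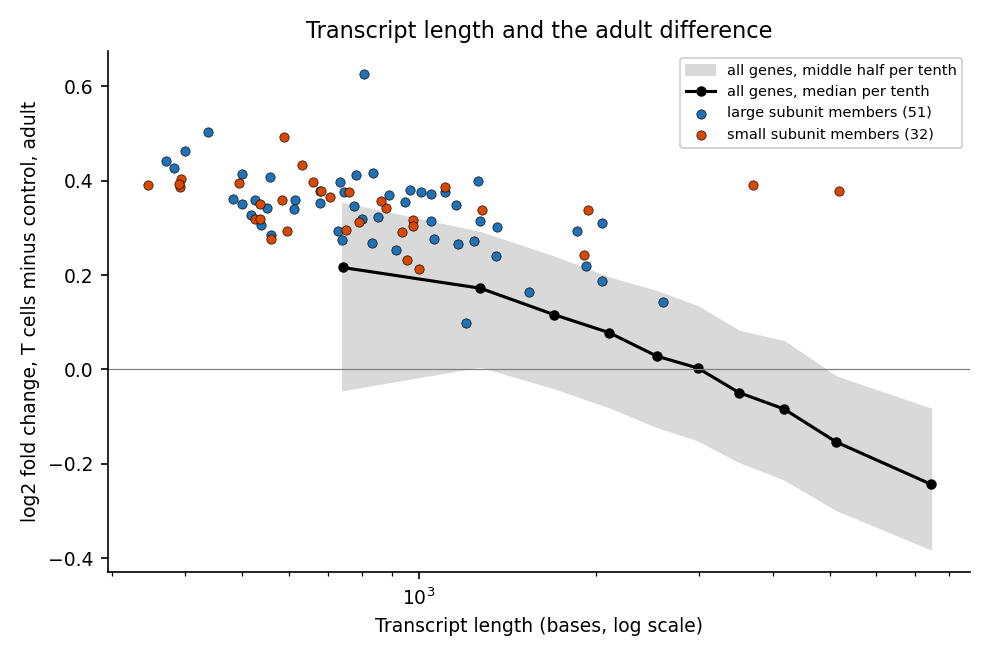
Log2 fold change of adult recipients minus adult controls against transcript length (log scale) for the 83 members (large subunit blue, small subunit orange), with the median and the middle 50% of all genes in 10 bins of length. Most members lie above the line, Rpl3l at 0.10 lies below it, and the median over all genes falls from 0.22 in the shortest bin to -0.24 in the longest.

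In neonatal hearts the transfer of adult T cells gave no call. Of the 83 members 0 were higher and 0 lower, against 0% and 0% of all genes, no member had an unadjusted p below 0.05, and 513 of all 16437 genes did. DESeq2 also called 0 members. The median was 0.03, with 67 values positive, but 16 were positive without neonatal control 9, 18 without neonatal recipient 1 and 23 without neonatal recipient 5. The highest values were those of Rps26 (0.10 ± 0.09), Rpl10a (0.08 ± 0.09) and Rpsa (0.08 ± 0.10), and the lowest those of Rpl3l (-0.31 ± 0.22), Rpl39l (-0.25 ± 0.62) and Rpl36 (-0.08 ± 0.10). Rps13 was at 199 ± 23.8 CPM with T cells and at 202 ± 16.2 without. The median standard error of a member was 0.09, and with any 1 library left out the median of the members ran from -0.03 to 0.10.

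The difference between both T cell effects, neonatal minus adult, passed for 0 members in either direction, as for 0% of all genes. It equals the difference between both age effects, recipients minus controls. Its smallest adjusted p among the members was 0.182, whereas all 83 values were negative, with a median of -0.31 against 0.01 over all genes, and 50 had an unadjusted p below 0.05. Rpl39l (-0.87 ± 1.06), Rps13 (-0.51 ± 0.13) and Rpl36 (-0.51 ± 0.14) had the lowest values and Rpl4 (-0.12 ± 0.13), Rpl7l1 (-0.14 ± 0.10) and Rpl15 (-0.15 ± 0.12) the highest. DESeq2 called 2 members, Rps13 and Rpl36, as lower, and over all 27956 genes it called 79 higher and 99 lower. With 1 library left out, the count at an unadjusted p below 0.05 ran from 28 to 70. It was 70 without neonatal recipient 1, 67 without neonatal control 9, 65 without neonatal recipient 5, 28 without neonatal recipient 2 or adult control 7, and 29 to 31 without neonatal control 6, neonatal control 7, neonatal recipient 4 or adult recipient 2. It was 64 with DESeq2, 62 without the filter on low counts, and 16 with the length trend removed, where the median was -0.18. Each T cell comparison shares its libraries with both age comparisons, so their values are given side by side.

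**Figure D5:**
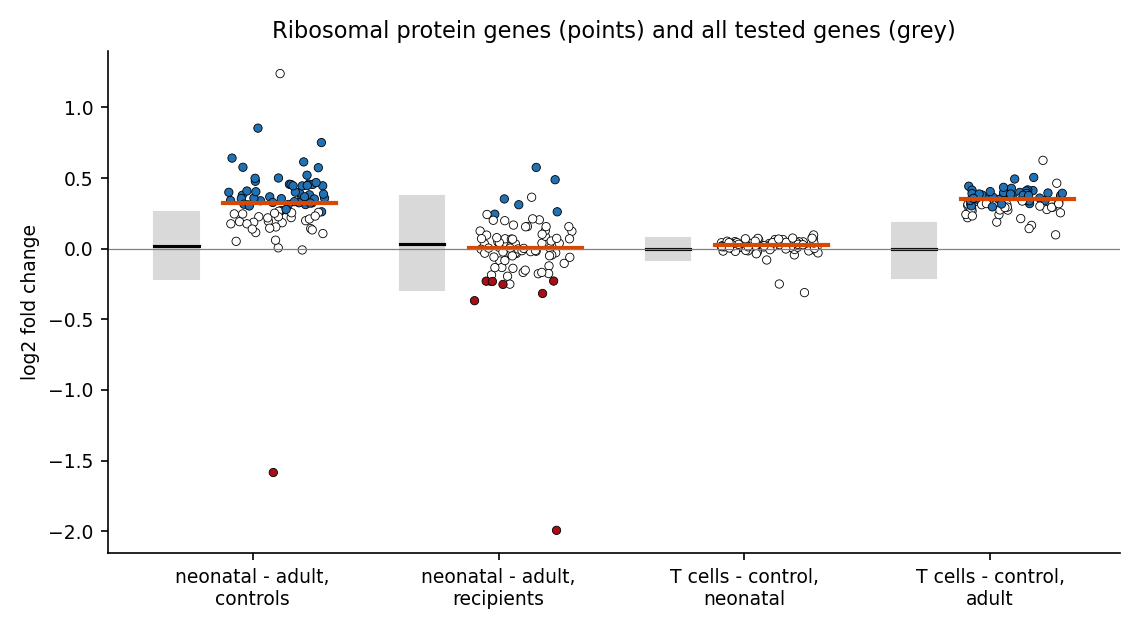
Log2 fold changes of the 83 tested members (points, filled blue or red where higher or lower at adjusted p 0.05) in 4 comparisons, with the member median in orange and the median and middle 50% of all tested genes in grey. The member medians are 0.32, 0.00, 0.03 and 0.35 from left to right.

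Paralogs were set against their partners as shares of the pair's level per kilobase. Rpl3l made up 1.22% ± 0.455 of the Rpl3l and Rpl3 pair in neonatal controls, 0.954% ± 0.27 in neonatal recipients, 4.41% ± 0.766 in adult controls and 4.03% ± 0.639 in adult recipients. The neonatal libraries ran from 0.646% to 1.74% and the adult ones from 3.08% to 5.20%, so ages did not overlap. Rpl22l1 made up 47.0% ± 1.46 and 47.0% ± 1.52 of its pair with Rpl22 in neonatal controls and recipients, and 36.1% ± 1.95 and 37.9% ± 0.71 in adult controls and recipients. Here too the lowest neonatal library, 45.4%, lay above the highest adult one, 38.7%. Rpl22 itself, an RNA-binding large subunit protein, had 0.20 ± 0.09 and 0.04 ± 0.08 (neonatal minus adult) in controls and recipients and did not pass.

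The other pairs differed less between ages in percentage points. Rps27l, a p53-responsive paralog of Rps27, made up 16.3% to 17.0% of its pair in the 4 group means, and Rpl7l1 5.62% to 6.47% of its pair with Rpl7. Rpl32l made up 2.96% to 3.25% of its pair with Rpl32, and Rpl39l 0.141% to 0.209% of its pair with Rpl39. Rpl39l was so low, 0 to 0.887 CPM, that its age difference in controls, 1.24 ± 0.78, did not pass. Rpl36al, which lies outside the name rule, made up 29.6% to 32.1% of its pair with Rpl36a. Neonatal and adult controls did not overlap for Rpl7l1 (5.57% to 6.21% against 6.36% to 6.64%) or Rpl32l (3.13% to 3.29% against 2.90% to 3.02%). Neonatal and adult recipients did not overlap for Rpl36al (28.9% to 31.0% against 31.2% to 33.1%). In the other age comparisons of these pairs the libraries overlapped. Near-identical copies can share reads, and 81 members had fractional counts in at least 1 library. For 58 of them, Rpl32l included, this held in all 15, whereas the counts of Rpl3l and Rpl39l were whole in every library. How much of the Rpl32l level came from shared reads was not tested.

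Of 3 ribosomal proteins outside the name rule given here, Fau and Rpl36al were higher with T cells in adults by 0.43 ± 0.10 and 0.44 ± 0.10 (adjusted p = 0.0239 and 0.0216). Rack1, a scaffold on the small subunit, was higher in neonatal controls by 0.26 ± 0.09 (adjusted p = 0.0351), as was Rpl36al by 0.36 ± 0.10 (adjusted p = 0.0124). None of these 3 passed between the ages in recipients. As given above, no gene passed with T cells in adults without adult control 5, adult control 6 or adult recipient 4. None passed there with the length trend removed either.

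The counts in the lists that follow stand against the shares of all genes, 15.4% higher and 15.6% lower between ages in controls, 26.9% and 23.8% in recipients, and 3.53% and 5.03% with T cells in adults. The medians stand against 0.02, 0.03 and 0.00 over all genes in the same order. Every call with T cells in adults in these lists was lost without adult control 5, adult control 6 or adult recipient 4. The same calls were lost with the length trend removed. Of 37 ribosome assembly genes, 10 were higher and 2 lower in neonatal than adult controls, with a median of 0.13. In recipients 9 were higher and 6 lower, with a median of 0.05, and both counts lie at or below the share of all genes. Npm1, the nucleolar chaperone nucleophosmin, was higher by 0.73 ± 0.10 and 0.66 ± 0.09 in the 2 arms (adjusted p = 2.58e-05 and 7.82e-06), and Ncl, nucleolin, by 0.50 ± 0.08 and 0.39 ± 0.07 (adjusted p = 0.000173 and 0.000224). Gnl3, nucleostemin, was higher by 0.63 ± 0.10 and 0.48 ± 0.10. Polr1e, a subunit of RNA polymerase I, was lower by -0.60 ± 0.09 and -0.81 ± 0.09 (adjusted p = 0.000128 and 1.03e-06). With T cells in adults the median was 0.13, with 0 assembly genes higher and 1 lower, Mdn1, a pre-ribosome remodelling ATPase (-0.49 ± 0.12, adjusted p = 0.0239).

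Of 30 initiation genes 5 were higher and 0 lower in neonatal controls (median 0.12), 7 and 6 in neonatal recipients (median 0.05), and 6 and 0 with T cells in adults (median 0.10). The higher counts between ages and the lower count in recipients lie near the shares of all genes. Eif3a, the large scaffold of eIF3, was higher in neonatal hearts in both arms (0.38 ± 0.07 and 0.53 ± 0.06), as was Pabpc1, the poly(A)-binding protein (0.29 ± 0.07 and 0.36 ± 0.07). With T cells in adults Eif3k (0.33 ± 0.07, adjusted p = 0.0197), Eif3i (0.32 ± 0.08, adjusted p = 0.0286), Eif6, which keeps subunits apart (0.38 ± 0.10, adjusted p = 0.0315), and Eif1 (0.29 ± 0.08, adjusted p = 0.0386) were higher. Of 9 elongation genes 3 were higher and 1 lower in neonatal controls, 2 and 2 in neonatal recipients, and none passed with T cells in adults, with medians of 0.22, 0.00 and 0.24. Eef1a2, the elongation factor form of adult muscle and neurons, was lower in neonatal hearts by -0.74 ± 0.09 and -1.09 ± 0.08 (adjusted p = 8.5e-06 and 2.47e-08), the same direction as Rpl3l, and Eif5a2 was higher by 0.94 ± 0.16 and 1.22 ± 0.15.

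Of 13 genes of mTOR and TOP control, 0 were higher and 2 lower in neonatal controls, 4 and 5 in neonatal recipients, and 1 and 3 with T cells in adults, with medians of 0.03, -0.15 and 0.03. The lower count in controls and the higher count in recipients lie near the shares of all genes. In adult recipients Eif4ebp1, a translation repressor released by mTOR, was higher (0.32 ± 0.09, adjusted p = 0.0408), and Rps6kb1, the S6 kinase (-0.27 ± 0.08, adjusted p = 0.0371), Larp4, a poly(A)- and RNA-binding protein (-0.36 ± 0.10, adjusted p = 0.0401), and Tsc1, a brake on mTOR (-0.32 ± 0.10, adjusted p = 0.0499), were lower. Of 8 genes of the Mdm2 and p53 pathway, 3 were lower in neonatal controls, among them Cdkn1a, an inhibitor of cell division (-0.57 ± 0.10, adjusted p = 0.000469). In neonatal recipients 1 was higher and 3 were lower, and Mdm4, a partner of Mdm2, was lower with T cells in adults (-0.72 ± 0.13, adjusted p = 0.018). None of the genes in these lists passed with T cells in neonates.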

How the data were processed

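Messenger RNA libraries from 15 ventricle samples in 4 groups were prepared with oligo-dT capture and a stranded kit, per the labels' protocols. Per the submitters' processing notes, bcl2fastq 2.20.0.422, cutadapt 2.5, STAR 2.7.2b, featureCounts 1.6.4 and DESeq2 1.24.0 were used, with build GRCm38.p6. The authors deposited 1 table of expected counts per gene, not normalized, with reads split into fractions (61.1% of non-zero values were whole within 0.001). The strand setting and the rule for fractions are not given in the sources used here.

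Counts were rounded, filtered by filterByExpr (minimum count 10, minimum total 15) and given edgeR's TMM scaling factors. A single model of the 4 groups held every library (edgeR 4.0.16, R 4.3.3, robust quasi-likelihood tests on both sides). The SE of a log2 fold change was derived from its test, as the absolute value over the square root of the F statistic. The threshold was a Benjamini-Hochberg adjusted p of 0.05 across the 16437 genes tested. CPM are scaled by the same factors, shares of counts are not. Transcript lengths are medians over RefSeq-matched GENCODE M21 transcripts. Genes without such a match took the median over protein-coding transcripts, or else over all their transcripts. Sequences are from RefSeq. The edgeR fit was tested on simulated counts, read out for the age comparison in controls. Depth was 21871617 to 34302786 counts, and 3 counts equal 0.0875 to 0.137 per 1000000 of these unscaled counts. Floors cover counting error only.

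Named members were the paralogs and their partners, up to 6 rises and 6 falls per comparison past the threshold (or the 3 most extreme values where fewer than 3 passed), members with known roles, and the highest and lowest levels. Of other lists, up to 4 genes past the threshold were named. Rpl28, Rpl32l, Rpl27a and the windows printed were chosen after their values were seen. The members and lists were chosen with earlier results of these data known. Alternatives were DESeq2 1.42.0, RLE scaling, scaling factors without the members, no filter, only the groups compared, 2 pseudogene rows added to their members, a length trend removed per library (natural spline, 5 degrees of freedom), each library left out, and the replicate number as a block. Some items are not reported here.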

Additional observations from a re-analysis of the deposited data

Results flagged for a closer look

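Gaps within groups of 4 libraries were compared with Dixon's critical value for 4 samples, for the share of counts and for 28 named members with counts above 0, 87 groups in all. Chance flags about 1 in 20 groups, and 3 were found. In neonatal control 9, Rpl15 measured 200 CPM against 229 to 233 in the other neonatal controls (gap 0.888 of the range), and Rpl22 measured 166 CPM against 190 to 193 (0.891). In adult recipient 1, Rpl3 measured 490 CPM against 559 to 572 in the other adult recipients (0.846). Each is the lowest library of its group for that gene. The share of counts gave no such gap in any group of 4.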

How the results depend on the processing

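Members higher in neonatal controls numbered 32 to 62 with each library left out (median 0.291 to 0.387), against 10.1% to 17.2% of all genes. The 1 lower member was Rpl3l each time. In recipients the same omissions gave 3 to 13 higher and 3 to 11 lower members, and DESeq2 gave 11 lower. Of all genes 24.1% to 25.9% were higher with these omissions, and DESeq2 gave 4106 of 27956 lower. With the length trend removed 16 members were higher in recipients, against 20.2% of all genes. For T cells in adults 0 members were higher with the trend removed, against 0% of all genes, with a member median of 0.211. For T cells in adults, leaving out each library gave 0 to 39 higher members (median 0.306 to 0.378), against 0% to 2.66% of all genes. Other settings gave more: 70 with DESeq2 (4.43% of all genes), 64 with only the groups compared (4.92%) and 54 with RLE scaling (4.42%). For the difference of the T cell effects DESeq2 gave 2 lower members, against 99 of 27956 genes. The member median was -0.179 with the length trend removed and -0.374 to -0.239 with each library left out. In fits restricted to libraries whose number occurs in both ages, the replicate block gave 62 higher members in controls (median 0.433) and 2 higher in recipients. Of all genes 12.5% were higher in controls and 23.7% in recipients. Without the block, an alternative added after seeing the data, the same libraries gave 58 higher members in controls (median 0.432), and 2 higher and 11 lower in recipients. Of all genes 9.58% were higher in controls there, and in recipients 23.7% were higher and 3608 of 15731 lower. The correlations of same-numbered libraries ran from -0.0709 to 0.31. Differently numbered libraries were not compared, so these values cannot decide whether the numbers mark pairs. The titles do not say so, and the numbers were not taken as pairs. The share of counts without mitochondrially encoded genes was 3.30%, 3.35%, 2.58% and 3.004% in neonatal controls, neonatal recipients, adult controls and adult recipients. The cause of these changes was not tested. No named gene past the threshold reversed its direction in any setting tried. For T cells in adults, 18 named genes past the threshold lost the call in 100 of 252 refits. Rpl10l had 0 counts in every library and Rpl39l 0 to 25. Whether depth limited other members was not tested.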
